A study of Homo sapiens with 40 samples.

Results

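Expression of 10 replication licensing genes was followed in hTERT-RPE1 and U2OS cells in which regulators of histone genes had been depleted by small interfering RNA (siRNA). The genes were taken by name, and all 10 were among the 22069 genes of the deposited table. They encode the subunits of the replicative helicase (MCM2 as ENSG00000073111_at, MCM3 as ENSG00000112118_at, MCM4 as ENSG00000104738_at, MCM5 as ENSG00000100297_at, MCM6 as ENSG00000076003_at and MCM7 as ENSG00000166508_at), the proteins that load it (CDC6 as ENSG00000094804_at and CDT1 as ENSG00000167513_at), the inhibitor of loading geminin (GMNN as ENSG00000112312_at) and an initiation factor (MCM10 as ENSG00000065328_at).

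U2OS is an osteosarcoma line, and hTERT-RPE1 is a line of non-transformed retinal pigment epithelial cells kept dividing by an introduced telomerase gene. All cells received 15 nM of siRNA. Cells with control siRNA, which targets none of these genes, or with a pool of siRNAs against CASP8AP2 were collected on days 1 and 2 (3 biological replicates in each of 8 groups, 24 Affymetrix arrays). On day 3, control siRNA and pools against CASP8AP2, NPAT or HINFP were used (2 biological replicates in each of 8 groups, 16 arrays), and both replicates of a group were transfected together, which keeps differences between experiments out of their spread. CASP8AP2, NPAT and HINFP act at the genes of the replication-dependent histones: NPAT is a coactivator downstream of cyclin E and CDK2, HINFP binds histone H4 promoters, and CASP8AP2 (FLASH) is a component of the histone locus body that takes part in the processing of histone mRNA.

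Licensing happens in G1 phase, when the origin recognition complex, CDC6 and CDT1 place a double ring of MCM2, MCM3, MCM4, MCM5, MCM6 and MCM7 on each origin. In S phase the ring becomes the active helicase together with CDC45 and the GINS proteins, and MCM10 takes part in this activation. Geminin binds CDT1 from S phase until mitosis and so keeps an origin from being licensed again. Transcription of most of these genes rises at the end of G1 phase through E2F factors. RNA was taken from whole cultures, in which fewer cells in the phase that expresses a gene and less RNA in each cell cannot be told apart.

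The targeted transcript was lower than in control cells on every array of each of the 10 siRNA comparisons, with 30.1% (U2OS cells, CASP8AP2, day 2) to 59.1% (hTERT-RPE1 cells, CASP8AP2, day 2) of the control signal left. Remaining CASP8AP2 signal was 55.5% to 59.1% in hTERT-RPE1 cells and 30.1% to 44.3% in U2OS cells, a difference between the lines that was not tested. RLBP1 and BEST1, markers of retinal pigment epithelium, and IBSP, a marker of bone-forming cells, lay between 3.45 and 4.67 on the log2 scale in all 40 arrays, below the median gene of any array (5.23 to 5.67). The epithelial keratin KRT8 lay between 10.35 and 11.96 in both lines, and RUNX2, a factor of bone-forming cells, was higher in hTERT-RPE1 cells, between 8.62 and 9.84, than in U2OS cells, between 7.17 and 8.36. Arrays of days 1 and 2 were treated as normalized apart from those of day 3, and no level was compared across these sets. Control replicates 1 and 2 of hTERT-RPE1 cells on day 3 were 8.61 and 9.14 for MCM10, the widest gap between duplicates among the licensing genes. In hTERT-RPE1 cells with HINFP siRNA, replicate 1 was below replicate 2 for all 10 genes, by a median of 0.18.

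Promoter sequences show what the genes share in their DNA. RefSeq windows of 300 bases (250 before and 50 after an annotated start, build GRCh38.p14) were found for 8 of the 10 genes, and not for MCM4 and MCM5. They were searched on both strands for the E2F letters TTTCCCGC, TTTGGCGC, TTTCGCGC and TTTGCCGC, of which TTTGGCGC and TTTCGCGC can overlap on opposite strands. A match lay in a window of 7 of these 8 genes (MCM2, MCM3, MCM6, MCM7, CDC6, CDT1 and GMNN), where 3.99% of all 27305 genes in the table of windows have one. For MCM7 and GMNN, which have 3 and 2 windows, the match was in 1 of them. Only these exact letters were searched, and other forms of an E2F site were not. The windows of MCM6, MCM2, CDC6 and MCM10, the last without a match, are printed here from 5′ to 3′ with the E2F letters in capitals.
MCM6: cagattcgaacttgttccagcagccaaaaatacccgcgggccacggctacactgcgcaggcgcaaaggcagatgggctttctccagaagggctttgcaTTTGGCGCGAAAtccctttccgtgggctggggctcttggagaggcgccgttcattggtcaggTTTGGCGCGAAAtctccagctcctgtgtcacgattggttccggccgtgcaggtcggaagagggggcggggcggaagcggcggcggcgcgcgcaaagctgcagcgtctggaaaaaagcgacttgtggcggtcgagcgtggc
MCM2: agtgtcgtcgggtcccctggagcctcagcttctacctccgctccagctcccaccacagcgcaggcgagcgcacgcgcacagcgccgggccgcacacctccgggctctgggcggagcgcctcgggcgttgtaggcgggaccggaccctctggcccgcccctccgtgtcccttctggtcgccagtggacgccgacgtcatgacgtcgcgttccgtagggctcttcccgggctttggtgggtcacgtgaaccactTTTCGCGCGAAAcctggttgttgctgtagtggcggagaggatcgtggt
CDC6: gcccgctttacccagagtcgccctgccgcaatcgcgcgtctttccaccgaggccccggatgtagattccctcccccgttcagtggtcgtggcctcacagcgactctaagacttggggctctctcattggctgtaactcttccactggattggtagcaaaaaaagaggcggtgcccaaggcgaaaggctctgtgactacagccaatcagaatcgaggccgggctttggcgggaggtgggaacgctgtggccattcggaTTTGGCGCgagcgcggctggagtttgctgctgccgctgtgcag
MCM10: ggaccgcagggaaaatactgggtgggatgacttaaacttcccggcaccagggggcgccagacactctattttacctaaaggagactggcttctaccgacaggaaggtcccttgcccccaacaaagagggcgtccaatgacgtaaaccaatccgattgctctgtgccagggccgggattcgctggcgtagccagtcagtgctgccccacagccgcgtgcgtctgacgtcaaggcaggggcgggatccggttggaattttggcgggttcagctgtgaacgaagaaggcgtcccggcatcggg
These windows lie at chr2:135876394-135876693 (minus strand), chr3:127598161-127598460 (plus strand), chr17:40287629-40287928 (plus strand) and chr10:13161308-13161607 (plus strand). In MCM6 the letters TTTGGCGC start 152 and 90 bases before the annotated start, and each is overlapped by TTTCGCGC on the other strand. In MCM2 the letters TTTCGCGC occur on both strands in 1 place just after the start, and in CDC6 TTTGGCGC lies 7 bases after it. Letters of the cell cycle homology element (TTTGAA or TTCGAA) were found in 1 of the windows, that of MCM6 (TTCGAA), and in 19.5% of all genes. A match of letters is a description of the DNA and not a measured binding site.

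Levels of the licensing genes on days 1 and 2 were close among groups. On the log2 scale of the arrays, the range of the 8 group means was between 0.37 (MCM5) and 0.62 (CDC6) for 8 of the genes, and was 1.05 for MCM6 and 1.12 for MCM10. U2OS control cells of day 2 held the highest mean for MCM2 (9.76 ± 0.07, SD, n = 3), MCM3 (10.39 ± 0.04), MCM5 (9.99 ± 0.05), MCM7 (11.17 ± 0.09), CDC6 (10.39 ± 0.18), CDT1 (8.34 ± 0.01) and MCM10 (10.08 ± 0.10). For MCM4 and MCM6 the highest mean was in hTERT-RPE1 control cells of day 2 (10.14 ± 0.09 and 8.67 ± 0.07), and for GMNN in hTERT-RPE1 control cells of day 1 (8.70 ± 0.07). No group with CASP8AP2 siRNA held the highest mean of any of the 10 genes. In the order of the groups, a gap between neighbours was often within the larger of their SDs, from 2 of 7 gaps for MCM10 to all 7 for MCM2.

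**Figure D1:**
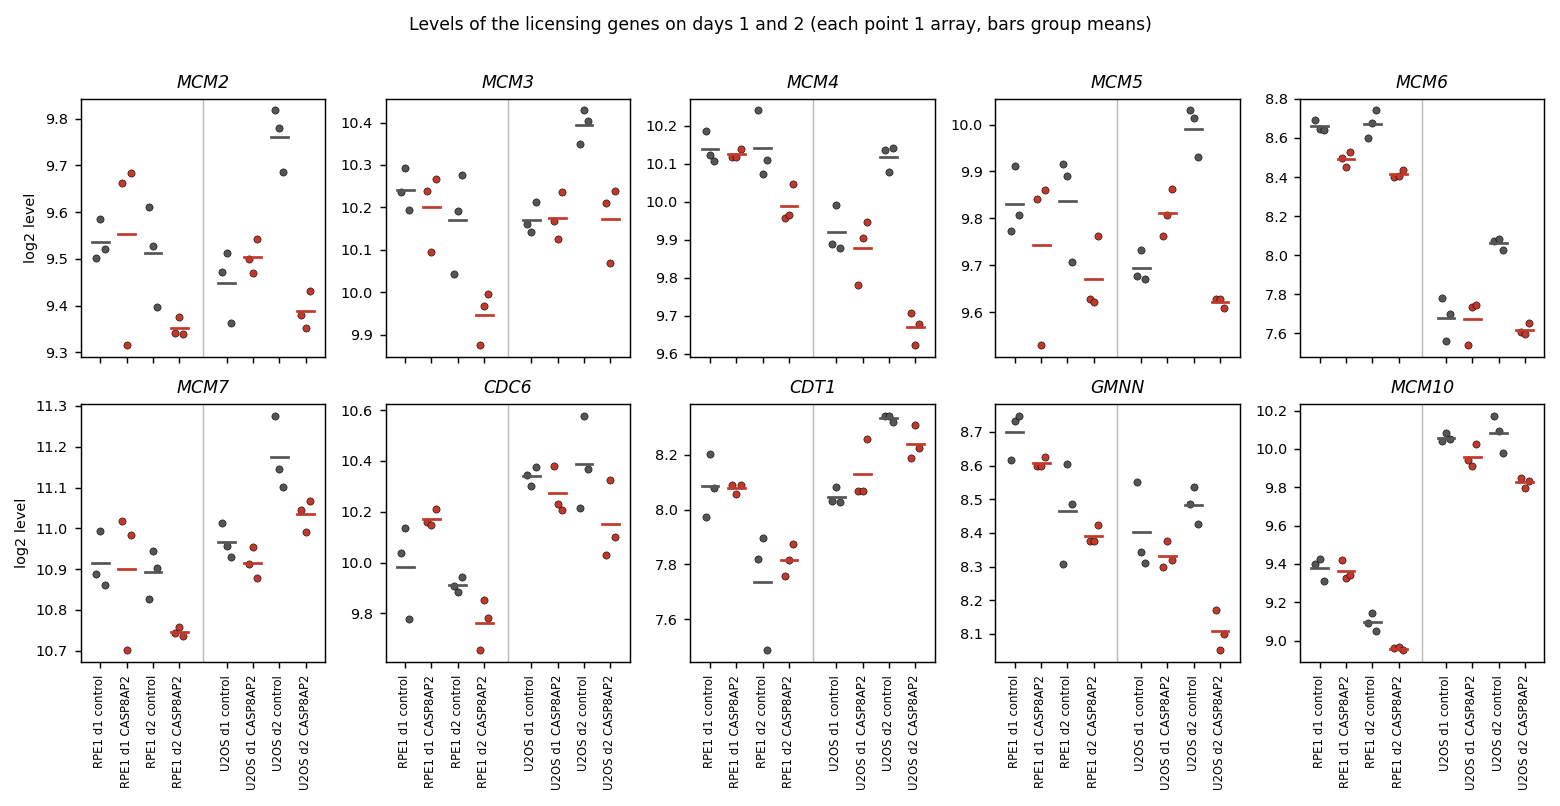
Log2 level of each licensing gene (y axis) on every array of days 1 and 2, by cell line, day and siRNA (x axis), with points for arrays (n = 3 a group) and bars for group means. In U2OS cells on day 2, the CASP8AP2 arrays of MCM4 (9.62 to 9.71) lie below the control arrays (10.08 to 10.14).

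On day 3, U2OS cells with NPAT siRNA held the highest mean for MCM2 (9.29 ± 0.03, SD, n = 2), MCM4 (9.82 ± 0.08), MCM5 (9.80 ± 0.04), MCM7 (11.03 ± 0.03), CDT1 (8.36 ± 0.16) and MCM10 (10.06 ± 0.01). CDC6 was highest in U2OS control cells (10.22 ± 0.03) and MCM3 in U2OS cells with HINFP siRNA (10.06 ± 0.09). MCM6 and GMNN were highest in hTERT-RPE1 cells with NPAT siRNA (8.69 ± 0.11 and 8.13 ± 0.04). Control cells of the same line came next for MCM2 to MCM7 and MCM10. That lead was within the larger SD for MCM3 (0.017), MCM4 (0.0050), MCM5 (0.017), MCM6 (0.014) and MCM7 (0.036). It was above the larger SD for MCM2 (0.098) and MCM10 (0.10). The lowest mean was that of hTERT-RPE1 cells with HINFP siRNA for 8 of the 10 genes, and that of U2OS cells with CASP8AP2 siRNA for MCM6 (7.84 ± 0.14) and GMNN (7.76). The range of the 8 group means was between 0.38 (GMNN) and 1.71 (MCM10), and from 2 to 5 of the 7 gaps between neighbours were within the larger SD.

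Depletion of CASP8AP2 in U2OS cells was followed on day 2 by lower RNA of 7 of the 10 licensing genes: MCM2, MCM3, MCM4, MCM5 and MCM6 of the helicase, GMNN and MCM10. Of all genes tested, 24.9% were called at an adjusted p under 0.05 and 13.1% were called lower (after cyclic loess scaling, 9.52% lower and 14.7% higher, against 11.8% higher without it). The median log2 difference was -0.31 over the 10 genes and -0.01 over all genes, and all 10 values were below 0. MCM4 was 10.14, 10.08 and 10.14 on the control arrays and 9.71, 9.62 and 9.68 on the CASP8AP2 arrays, so that the groups did not overlap. It fell by 0.45 ± 0.06 (SE) on the log2 scale, to 73.2% of control (limma, adjusted p = 2.85e-06). MCM6 was 8.07, 8.08 and 8.03 on the control arrays and 7.61, 7.60 and 7.65 on the CASP8AP2 arrays, again without overlap. It fell by 0.44 ± 0.06, to 73.6% of control (adjusted p = 1.05e-05).

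MCM2 and MCM5 fell in U2OS cells on day 2 to 77.2% and 77.4% of control (log2 differences -0.37 ± 0.08 for both, adjusted p = 0.000943 and 0.000808). MCM3 fell less, to 85.8% of control (-0.22 ± 0.07, adjusted p = 0.0147), and this call was lost without control replicate 2 (adjusted p = 0.0576), without CASP8AP2 replicate 2 (0.0961) and after cyclic loess scaling (0.126). MCM7, the remaining subunit, was at 11.28, 11.15 and 11.10 in control cells and at 11.04, 10.99 and 11.07 after CASP8AP2 siRNA, and its difference of -0.14 (95% interval -0.28 to 0.0046) did not pass (adjusted p = 0.165). GMNN, the inhibitor of loading, was 8.49, 8.54 and 8.43 on the control arrays and 8.17, 8.05 and 8.10 on the CASP8AP2 arrays. It fell to 77.1% of control (-0.37 ± 0.07, adjusted p = 0.000346). MCM10 fell to 83.8% of control (-0.25 ± 0.05, adjusted p = 0.00108). The loaders did not pass: CDC6 differed by -0.24 (adjusted p = 0.0745) and CDT1 by -0.09 (adjusted p = 0.488).

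On day 1 none of the 10 genes was called in U2OS cells with CASP8AP2 siRNA (limma; 0 also at an unadjusted p under 0.05), where 5.87% of all genes were. Log2 differences ranged from -0.10 (MCM10) to 0.12 (MCM5), while CASP8AP2 itself was at 40.6% of control. The effect on day 2 was tested against that on day 1, and MCM2 (-0.43 ± 0.11, adjusted p = 0.0198), MCM4 (-0.41 ± 0.08, 0.00247), MCM5 (-0.49 ± 0.11, 0.00689) and MCM6 (-0.44 ± 0.09, 0.00293) were more negative on day 2. In this test 7.04% of all genes were called and 3.04% were called lower (after cyclic loess scaling, 1.75% lower and 4.97% higher, against 4.00% higher without it). The call of MCM2 was lost without control replicate 3 of day 1 (adjusted p = 0.0579) and without control replicate 1 of day 2 (0.0522). Group means show which arrays moved. MCM6 went from 7.68 on day 1 to 8.06 on day 2 in control cells and from 7.67 to 7.62 in cells with CASP8AP2 siRNA. MCM2 went from 9.45 to 9.76 in control cells and from 9.50 to 9.39 with CASP8AP2 siRNA. MCM4 went from 9.92 to 10.12 and from 9.88 to 9.67, and MCM5 from 9.69 to 9.99 and from 9.81 to 9.62.

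On day 3, 2 of the 10 genes were called in U2OS cells with CASP8AP2 siRNA, both lower. This count was near the share of all genes, of which 18.9% were called and 11.0% were called lower (after centring on the median, 13.4% lower and 6.18% higher, against 7.91% higher without it). The median over the 10 genes was -0.18, with 9 values below 0. After cyclic loess scaling that median was -0.07, with 7 values below 0. MCM6 was 8.56 and 8.40 on the control arrays and 7.75 and 7.94 on the CASP8AP2 arrays. It fell by 0.64 ± 0.11 to 64.3% of control (adjusted p = 0.00151), the largest difference of any of the 10 genes in the 10 siRNA comparisons. MCM4 was 9.89 and 9.74 on the control arrays and 9.41 and 9.51 on the CASP8AP2 arrays. It fell by 0.35 ± 0.10 to 78.3% of control (adjusted p = 0.0269), and this call was lost without control replicate 1 (adjusted p = 0.193), without CASP8AP2 replicate 1 (0.170) and after cyclic loess scaling (0.124). MCM2 (-0.22), MCM5 (-0.15), MCM7 (-0.16), CDC6 (-0.25) and GMNN (-0.20) did not pass. CDT1 differed by 0.20 (95% interval -0.09 to 0.48).

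In hTERT-RPE1 cells with CASP8AP2 siRNA, none of the 10 genes was called on day 1 (limma; 1, MCM6, at an unadjusted p under 0.05), where 0.793% of all genes were. On day 2, MCM3 and MCM6 were called lower, and 6.40% of all genes were called and 2.16% called lower (after centring on the median, 4.41% lower and 3.19% higher, against 4.25% higher without it). The median over the 10 genes was -0.15 and that over all genes -0.02. MCM6 was 8.60, 8.68 and 8.74 on the control arrays and 8.40, 8.40 and 8.44 on the CASP8AP2 arrays, without overlap. It fell by 0.26 ± 0.06 to 83.6% of control (adjusted p = 0.0110), and the call was lost without control replicate 3 (adjusted p = 0.0573). MCM3 was 10.04, 10.19 and 10.28 on the control arrays and 9.88, 9.97 and 10.00 on the CASP8AP2 arrays. It fell by 0.22 ± 0.07 to 85.6% of control (adjusted p = 0.0425), a call that remained when control replicate 1 was left out and was lost when any of the other 5 arrays was (adjusted p = 0.0679 to 0.186). With the arrays of these groups alone in the fit neither gene passed (adjusted p = 0.278 for MCM3 and 0.130 for MCM6).

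On day 3 none of the 10 genes was called in hTERT-RPE1 cells with CASP8AP2 siRNA (limma; 2 at an unadjusted p under 0.05, MCM5 and MCM6), where 6.15% of all genes were. MCM6 was 8.76 and 8.61 in control cells and 8.42 and 8.40 after CASP8AP2 siRNA, a difference of -0.27 (95% interval -0.50 to -0.03). MCM10 differed by -0.17, and by 0.09 when control replicate 2 was left out. MCM4 differed by 0.07 and CDC6 by 0.09.

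**Figure D2:**
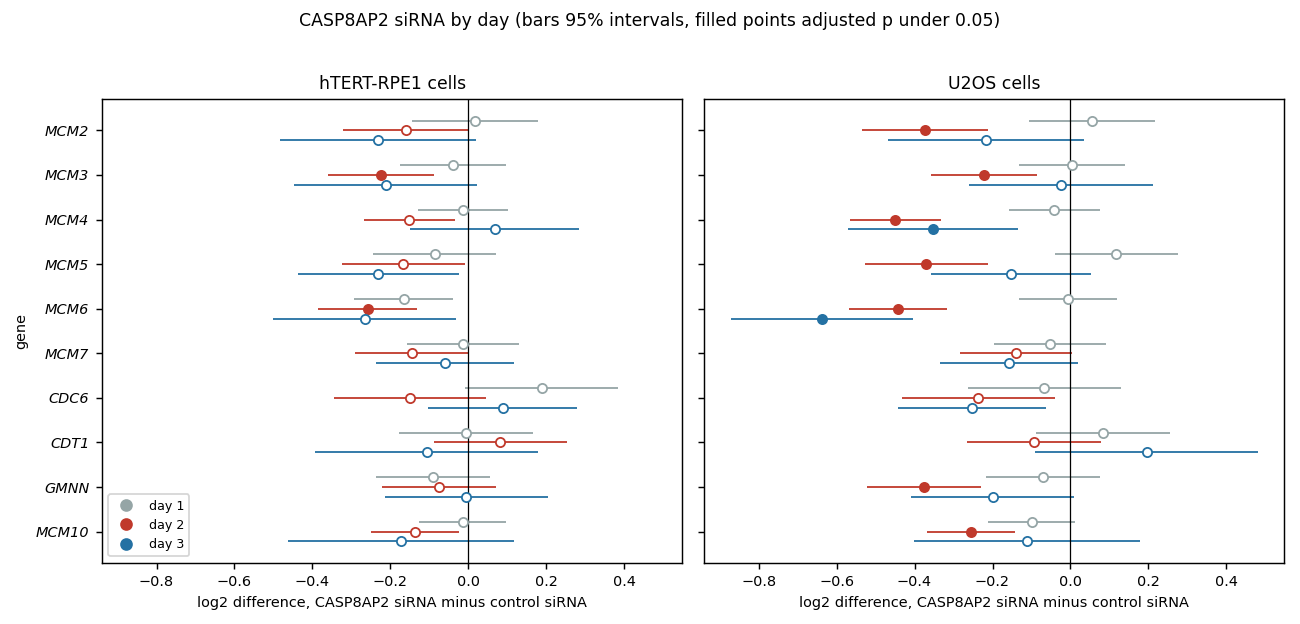
Log2 difference between CASP8AP2 siRNA and control siRNA (x axis) for each licensing gene (y axis) in hTERT-RPE1 cells (left) and U2OS cells (right) on days 1, 2 and 3; bars are 95% intervals and filled points passed an adjusted p under 0.05. In U2OS cells the points of day 1 lie between -0.10 and 0.12 and 7 of the 10 points of day 2 are filled.

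The effect of CASP8AP2 siRNA in the 2 lines was compared by subtracting one from the other. Depletion was unequal: U2OS cells kept 40.6%, 30.1% and 44.3% of the CASP8AP2 signal on days 1, 2 and 3. The values for hTERT-RPE1 were 55.5%, 59.1% and 58.7%. Depth of depletion and cell line cannot be told apart here, and the part of either was not tested. On day 2 the line difference was called for MCM4 (-0.30 ± 0.08, adjusted p = 0.0191), which fell by 0.45 in U2OS cells and differed by -0.15 in hTERT-RPE1 cells. In this test 9.39% of all genes were called and 4.83% were called lower in U2OS cells (after cyclic loess scaling, 3.45% lower and 5.48% higher, against 4.56% higher without it). The call of MCM4 was lost without hTERT-RPE1 control replicate 2 (adjusted p = 0.0503), hTERT-RPE1 CASP8AP2 replicate 3 (0.0548) or U2OS CASP8AP2 replicate 2 (0.0517). For GMNN the difference was -0.30 as well and did not pass (adjusted p = 0.0626), and for MCM3 it was 0.0025 (95% interval -0.19 to 0.19). None of the 10 genes was called on day 1 (limma; 0 at an unadjusted p under 0.05; 0.689% of all genes called) or on day 3 (3 at an unadjusted p under 0.05, MCM4, MCM6 and CDC6; 9.55% of all genes called). On day 3 the split of these calls was 4.05% higher and 5.50% lower in U2OS cells, and 3.25% and 6.91% after centring on the median. The effect in hTERT-RPE1 cells did not pass a test of day 2 against day 1 for any of the 10 genes (limma; 1, CDC6, at an unadjusted p under 0.05; 0.652% of all genes called).

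After depletion of NPAT, 1 of the 10 licensing genes was called on day 3 in hTERT-RPE1 cells and none in U2OS cells (limma). In U2OS cells none of the 10 was called (limma; 1, CDT1, at an unadjusted p under 0.05), where 8.13% of all genes were (3.84% higher and 4.29% lower; 3.07% and 6.23% after centring on the median, 4.25% and 3.17% after cyclic loess scaling). CDT1 was 8.16 and 7.93 on the control arrays and 8.24 and 8.47 on the NPAT arrays (0.31, 95% interval 0.02 to 0.60, adjusted p = 0.189). In hTERT-RPE1 cells CDC6 was called, where 5.04% of all genes were called and 2.37% called higher. It was the one licensing gene called higher in the 10 siRNA comparisons. CDC6 was 9.12 and 9.17 on the control arrays and 9.55 and 9.48 on the NPAT arrays. It rose by 0.37 ± 0.09 to 129% of control (adjusted p = 0.0311), and the call was lost when any of the 4 arrays was left out (adjusted p = 0.0702 to 0.203) and with these arrays alone in the fit (0.161). MCM4 (0.30, adjusted p = 0.109) and GMNN (0.30, adjusted p = 0.102) did not pass.

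The effect of NPAT siRNA on CDC6 differed between the lines by -0.55 ± 0.12 (adjusted p = 0.0320), since CDC6 was 10.24 and 10.20 in U2OS control cells and 10.05 and 10.02 after NPAT siRNA. Of all genes, 3.46% were called in this test and 1.59% called lower in U2OS cells (after centring on the median, 2.20% lower and 1.29% higher, against 1.87% higher without it). The call was lost when any of the 8 arrays was left out (adjusted p = 0.0546 to 0.127).

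**Figure D3:**
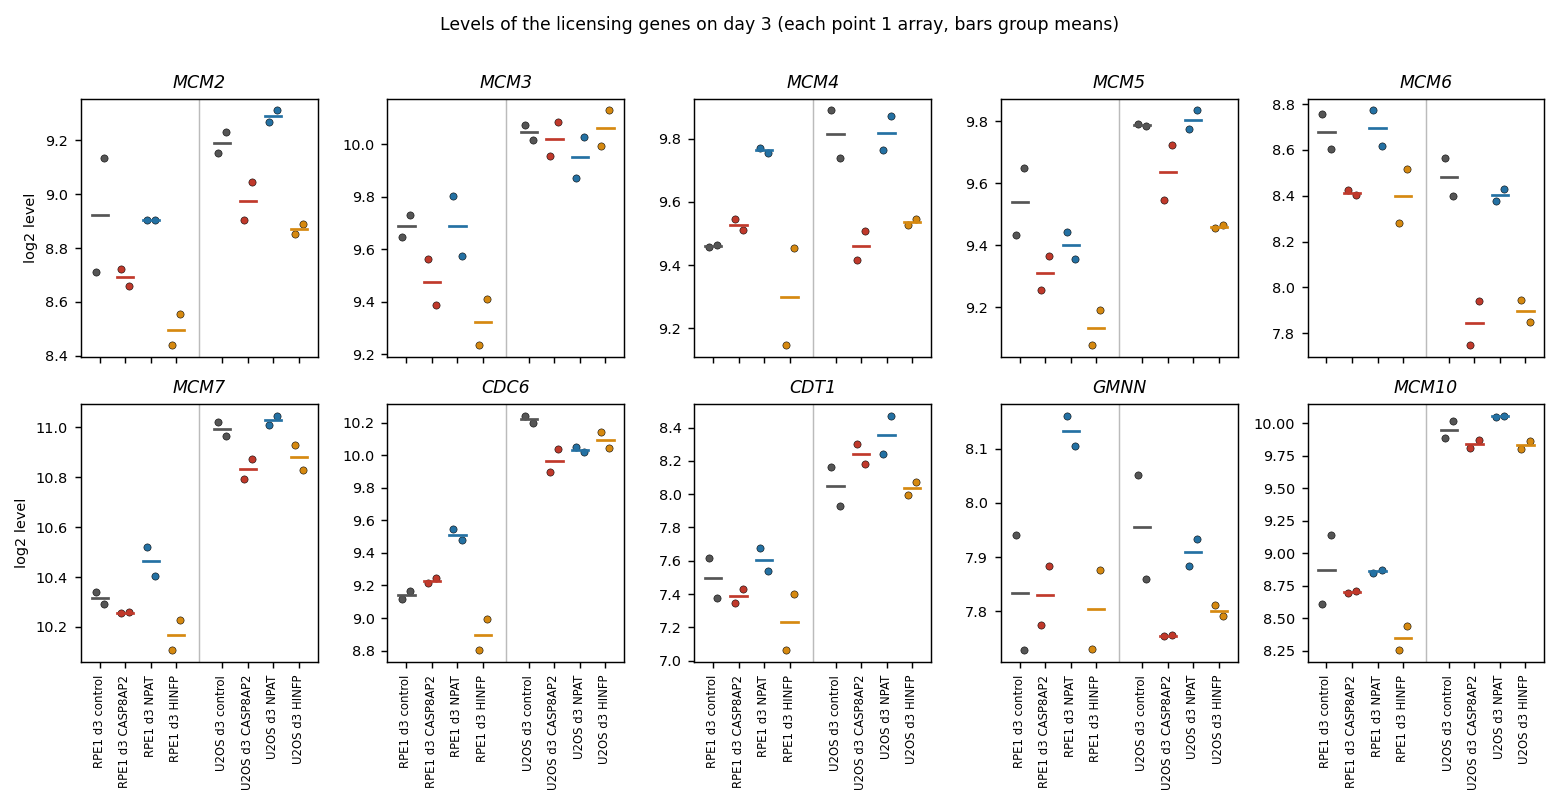
Log2 level of each licensing gene (y axis) on every array of day 3, by cell line and siRNA (x axis), with points for arrays (n = 2 a group) and bars for group means. In hTERT-RPE1 cells the CDC6 arrays with NPAT siRNA (9.48 and 9.55) lie above all others of that line, and the MCM10 arrays with HINFP siRNA (8.25 and 8.44) below all others.

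After depletion of HINFP, 1 of the 6 helicase subunits (MCM5) was called lower on day 3 in hTERT-RPE1 cells and 2 of 6 (MCM5 and MCM6) in U2OS cells. In hTERT-RPE1 cells MCM5 and MCM10 were called lower, where 4.15% of all genes were called and 2.01% called lower (after centring on the median, 1.52% lower and 2.52% higher, against 2.13% higher without it). All 10 values were below 0, with a median of -0.27 beside -0.02 for all genes. MCM5 was 9.43 and 9.65 on the control arrays and 9.08 and 9.19 on the HINFP arrays. It fell by 0.41 ± 0.10 to 75.4% of control (adjusted p = 0.0335). MCM10 was 8.61 and 9.14 on the control arrays and 8.25 and 8.44 on the HINFP arrays. It fell by 0.53 ± 0.13 to 69.4% of control (adjusted p = 0.0452), and by 0.26 when control replicate 2 was left out (adjusted p = 0.212). Both calls held without control replicate 1 and were lost without any of the other 3 arrays (adjusted p = 0.0790 to 0.268) and with these arrays alone in the fit (0.217 for MCM5 and 0.266 for MCM10). After centring on the median MCM10 was not called (0.0544). MCM2 (-0.43, adjusted p = 0.0598) and MCM3 (-0.37, adjusted p = 0.0799) did not pass.

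In U2OS cells with HINFP siRNA, MCM5 and MCM6 were called lower, where 9.43% of all genes were called and 4.84% called lower. MCM6 was 8.56 and 8.40 on the control arrays and 7.95 and 7.85 on the HINFP arrays. It fell by 0.59 ± 0.11 to 66.7% of control (adjusted p = 0.00445), and the call was lost without control replicate 1 (adjusted p = 0.0601) or HINFP replicate 2 (0.0512). MCM5 was 9.79 and 9.78 on the control arrays and 9.46 and 9.46 on the HINFP arrays, with little spread in either group. It fell by 0.33 ± 0.10 to 79.7% of control (adjusted p = 0.0483), and the call was lost without any of the 4 arrays (adjusted p = 0.143 to 0.200) and after cyclic loess scaling (0.0834). MCM2 (-0.32) and MCM4 (-0.28) did not pass (adjusted p = 0.111 and 0.112), and MCM3 differed by 0.02. The effects of HINFP siRNA in the 2 lines did not differ past the threshold for any of the 10 genes (limma; 1, MCM3, at an unadjusted p under 0.05; 3.15% of all genes called, 1.71% higher and 1.44% lower, or 1.36% and 1.88% after centring on the median). For MCM10 the difference between the lines was 0.41 (95% interval -0.0027 to 0.82, adjusted p = 0.294).

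**Figure D4:**
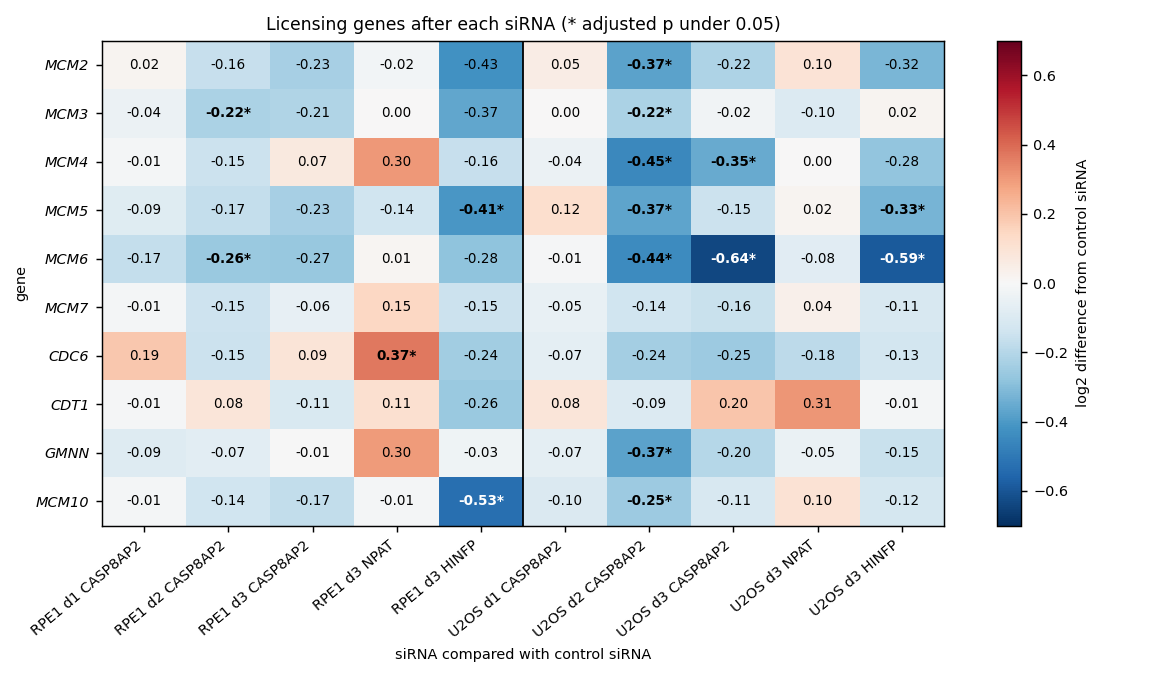
Log2 difference from control siRNA of each licensing gene (rows) in the 10 siRNA comparisons (columns, hTERT-RPE1 cells left of the line and U2OS cells right of it; colour scale from -0.7 to 0.7); an asterisk marks an adjusted p under 0.05. MCM6 has the lowest values, -0.64 and -0.59 in U2OS cells on day 3 with CASP8AP2 and HINFP siRNA.

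Over the 10 siRNA comparisons, 16 of 100 values were called, 15 of them lower. The share of all genes called was between 0.793% and 24.9% in a comparison, and the share called lower between 0.344% and 13.1%. Of the 16, 7 came from U2OS cells on day 2, the comparison with the highest share. MCM6 was called in 4 comparisons, MCM5 in 3, MCM3, MCM4 and MCM10 in 2 each, MCM2, CDC6 and GMNN in 1 each, and MCM7 and CDT1 in none (limma). Values of MCM7 lay between -0.16 and 0.15, and those of CDT1 between -0.26 and 0.31. Comparisons of 1 line and day share their control arrays, so these counts are not independent of one another.

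The siRNAs of day 3 were also compared with each other. These differences leave the control out, but the control arrays stayed in the fit and its spread. In hTERT-RPE1 cells all 10 genes were lower with HINFP than with NPAT siRNA, with a median of -0.37 beside 0.0078 for all genes. HINFP replicate 1 was below replicate 2 for all 10 genes, by a median of 0.18. The 10 values share these arrays and are not independent of one another. CDC6 (-0.61 ± 0.09, limma, adjusted p = 0.00304) and MCM4 (-0.46 ± 0.10, 0.0230) were called, where 3.63% of all genes were called and 2.06% called lower. CDC6 was 8.80 and 9.00 on the HINFP arrays and 9.55 and 9.48 on the NPAT arrays. MCM4 was 9.15 and 9.45 on the HINFP arrays and 9.77 and 9.76 on the NPAT arrays. The call of CDC6 was lost without HINFP replicate 1 (adjusted p = 0.0507), and that of MCM4 without HINFP replicate 1 (0.252), NPAT replicate 1 (0.148) or NPAT replicate 2 (0.109). In U2OS cells MCM6 was called lower with HINFP than with NPAT siRNA (-0.51 ± 0.11, adjusted p = 0.0189), where 4.04% of all genes were called and 1.99% called lower, and this call was lost without any of the 4 arrays (adjusted p = 0.0572 to 0.146).

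MCM6 was also called lower with CASP8AP2 than with NPAT siRNA in U2OS cells (-0.56 ± 0.11, adjusted p = 0.0136), where 3.50% of all genes were called and 1.93% called lower. Its NPAT arrays were at 8.38 and 8.43 and its CASP8AP2 arrays at 7.75 and 7.94. This call held without CASP8AP2 replicate 2 and was lost without any of the other 3 arrays (adjusted p = 0.0635 to 0.147). In hTERT-RPE1 cells none of the 10 genes was called between CASP8AP2 and NPAT siRNA (limma; 5 at an unadjusted p under 0.05; 2.38% of all genes called), although all 10 values were below 0. None was called between CASP8AP2 and HINFP siRNA in hTERT-RPE1 cells (limma; 3 at an unadjusted p under 0.05; 3.81% of all genes called) or in U2OS cells (limma; 0 at an unadjusted p under 0.05; 5.60% of all genes called). Between CASP8AP2 and HINFP siRNA in U2OS cells, MCM6 differed by -0.05 (95% interval -0.29 to 0.18).

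Under control siRNA, 5, 7 and 6 of the 10 licensing genes were called between the lines on days 1, 2 and 3, where 48.7%, 50.8% and 43.8% of all genes were. The count on day 1 was at the share of all genes, and those on days 2 and 3 were not far above it. Of the called genes, 2 were higher in U2OS cells on day 1, 6 on day 2 and 6 on day 3. The scale mattered here: the median difference of all genes was -0.0013 on day 1, -0.026 on day 2 and -0.043 on day 3 in the deposited values and -0.13, -0.18 and -0.11 once each array was centred on its median. On day 1, 5 of the 10 genes were called, where 48.7% of all genes were called, 26.0% higher and 22.7% lower in U2OS cells (after centring, 19.8% higher and 36.2% lower). MCM6 was 8.69, 8.65 and 8.64 in hTERT-RPE1 cells and 7.78, 7.56 and 7.70 in U2OS cells. It was lower in U2OS cells by 0.98 ± 0.06 on the log2 scale, at 50.8% of the hTERT-RPE1 signal (log2 difference -0.98, adjusted p = 8.39e-12). MCM10 was 9.40, 9.42 and 9.31 in hTERT-RPE1 cells and 10.04, 10.09 and 10.05 in U2OS cells, higher by 0.68 ± 0.05 (adjusted p = 4.37e-10). CDC6 was higher in U2OS cells (0.36, adjusted p = 0.00307), and GMNN (-0.30, adjusted p = 0.00113) and MCM4 (-0.22, adjusted p = 0.00223) were lower. After centring, 8 of the 10 genes were called, and MCM7 (0.05 without centring) was below 0.

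On day 2, 7 of the 10 genes were called between the lines, where 50.8% of all genes were called, 27.1% higher and 23.7% lower in U2OS cells (after centring, 20.7% higher and 45.8% lower). MCM6 was again lower in U2OS cells (-0.61 ± 0.06, adjusted p = 1.72e-08), and MCM10 was 0.99 ± 0.05 higher, at 198% of the hTERT-RPE1 signal (adjusted p = 8.64e-13). CDT1 (0.60, adjusted p = 1.90e-06) and CDC6 (0.47, adjusted p = 0.000185) were higher, as were MCM7 (0.28, adjusted p = 0.00154), MCM2 (0.25, adjusted p = 0.0101) and MCM3 (0.22, adjusted p = 0.00625). After centring, MCM7, MCM2 and MCM3 kept their direction and did not pass (adjusted p = 0.145, 0.322 and 0.396). After cyclic loess scaling MCM2 (0.0551) and MCM3 (0.0595) did not pass either. MCM2 was not called without hTERT-RPE1 control replicate 3 (adjusted p = 0.0654), and MCM3 not without hTERT-RPE1 control replicate 1 (0.0506).

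On day 3, 6 of the 10 genes were called between the lines, all higher in U2OS cells, where 43.8% of all genes were called and 23.3% called higher. CDC6 was 9.12 and 9.17 in hTERT-RPE1 cells and 10.24 and 10.20 in U2OS cells, higher by 1.08 ± 0.09, at 211% (adjusted p = 2.99e-07). MCM10 was higher by 1.08 ± 0.13 (adjusted p = 1.62e-05), MCM7 by 0.68 ± 0.08 (adjusted p = 1.31e-05), CDT1 by 0.55 ± 0.13 (adjusted p = 0.00370), MCM3 by 0.36 ± 0.11 (adjusted p = 0.0167) and MCM4 by 0.35 ± 0.10 (adjusted p = 0.0114). The number called was 3 without U2OS control replicate 1, when CDT1 (adjusted p = 0.0507), MCM3 (0.0880) and MCM4 (0.106) did not pass. After cyclic loess scaling MCM3 (0.107) and MCM4 (0.0864) were not called, and MCM3 was not called without hTERT-RPE1 control replicate 1 (0.0835). MCM6 differed by -0.20 (95% interval -0.43 to 0.04).

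**Figure D5:**
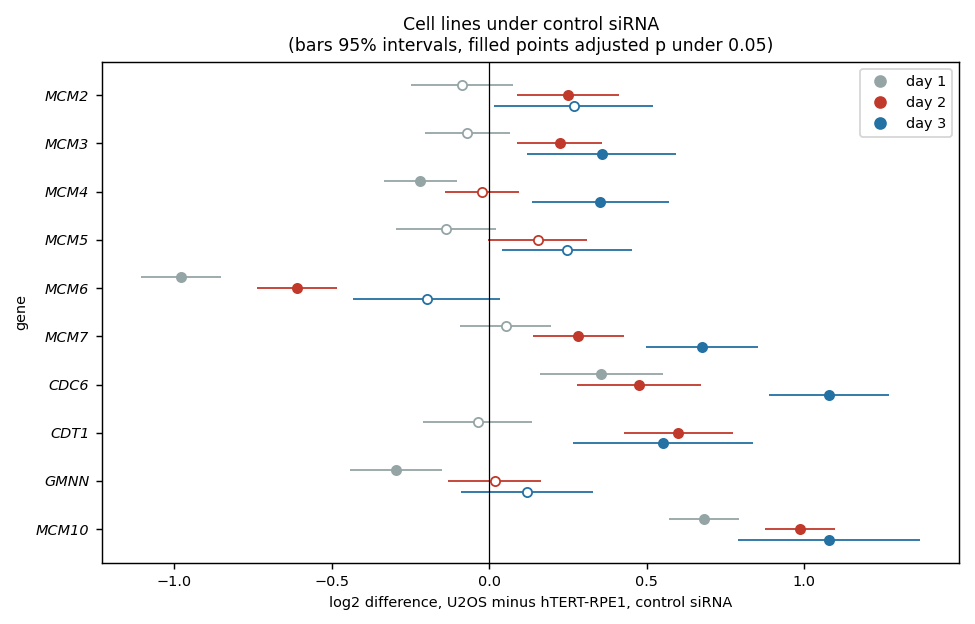
Log2 difference between U2OS and hTERT-RPE1 cells under control siRNA (x axis) for each licensing gene (y axis) on days 1, 2 and 3; bars are 95% intervals and filled points passed an adjusted p under 0.05. MCM6 lies left of 0 on all 3 days (-0.98, -0.61 and -0.20), and CDC6 and MCM10 lie right of 0 on all 3.

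Control cells of day 2 were compared with those of day 1 within each line. In U2OS control cells, MCM2 (0.31, adjusted p = 0.00899), MCM3 (0.22, 0.0257), MCM4 (0.20, 0.0198), MCM5 (0.30, 0.0103), MCM6 (0.38, 0.000172) and CDT1 (0.29, 0.0231) rose, where 13.0% of all genes were called and 7.29% called higher (after centring, 5.22% higher and 7.64% lower, against 5.70% lower without it). MCM7 differed by 0.21 and did not pass (adjusted p = 0.0534). After centring, MCM2, MCM5 and MCM6 passed, and all but 1 of the 10 values stayed above 0. MCM5 and MCM6 were called without any 1 of the 6 arrays. MCM2 was not called without replicate 3 of day 1 (adjusted p = 0.0532), and MCM3, MCM4 and CDT1 were each lost without 4 or 5 of the 6 arrays (adjusted p = 0.0536 to 0.0923), and the number called was 3 without replicate 1 or replicate 3 of day 1. In hTERT-RPE1 control cells, CDT1 (-0.35, adjusted p = 0.00759), MCM10 (-0.28, 0.00133) and GMNN (-0.23, 0.0379) fell, where 10.0% of all genes were called and 5.56% called lower. No helicase subunit was called there, with differences between -0.07 (MCM3) and 0.01 (MCM6). The call of GMNN was lost after centring (adjusted p = 0.0587), after cyclic loess scaling (0.0750) and without replicate 2 or 3 of day 1 or replicate 1 or 3 of day 2 (0.0645 to 0.201). The call of CDT1 was lost without replicate 2 of day 1 (0.0552). With these arrays alone in the fit none of the 3 passed (0.0788 to 0.243). How the day changes of the control cells differ between the lines was not tested.

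Other genes of licensing and firing were taken from a longer list where a symbol could be paired with them. This left 17 and no GINS gene, and of the origin recognition complex only ORC1L. They were factors of origin recognition and firing (ORC1L, CDC45L, CDC7, RECQL4, DONSON, WDHD1, CLSPN), of CDT1 turnover by ubiquitin ligases (DTL, DDB1, RBX1, SKP2, SKP1, CUL1), and E2F transcription (E2F1, E2F2, TFDP1, TFDP2). With CASP8AP2 siRNA in U2OS cells on day 2, 8 of 17 were called and all were lower, where 24.9% of all genes were called and 13.1% called lower: ORC1L (-0.51), the large subunit of the origin recognition complex, CLSPN (-0.42), WDHD1 (-0.42), DONSON (-0.38), DTL (-0.22), CUL1 (-0.15), E2F1 (-0.32) and E2F2 (-0.70). The median of the list was -0.22 there. On day 3, 5 of 17 were called lower with CASP8AP2 siRNA in U2OS cells, where 11.0% of all genes were called lower: CDC7 (-0.68), a kinase that fires origins, E2F2 (-0.51), SKP2 (-0.47), CUL1 (-0.46) and WDHD1 (-0.28). With HINFP siRNA, ORC1L (-0.63), E2F2 (-0.44) and WDHD1 (-0.35) were called lower in U2OS cells (4.84% of all genes called lower), and E2F2 (-0.72), E2F1 (-0.55) and DTL (-0.44) in hTERT-RPE1 cells (2.01% called lower). In hTERT-RPE1 cells on day 3, 1 of 17 was called with CASP8AP2 siRNA (E2F2, -0.63) and 1 with NPAT siRNA (CLSPN, 0.59), which is close to the share of all genes called (6.15% and 5.04%). E2F2, an activator of S phase genes, was called lower in 5 of the 10 siRNA comparisons. None of the 17 was called with CASP8AP2 siRNA in hTERT-RPE1 cells on days 1 and 2 or with NPAT siRNA in U2OS cells on day 3 (limma), and 1, CUL1 (-0.20), was called in U2OS cells on day 1, again close to the share of all genes (5.87%).

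Likeness to the mean of the 6 helicase subunits was described by Pearson's r over the 8 group means of a set, after the mean of each cell line was subtracted. The lower of the r of days 1 and 2 and the r of day 3 was 0.97 for MCM2, 0.91 for MCM6, 0.90 for MCM5, 0.89 for MCM4, 0.84 for MCM7 and 0.60 for MCM3, which are part of that mean. It was 0.75 for GMNN, 0.63 for MCM10, 0.62 for CDC6 and 0.47 for CDT1. Among the 1904 genes that had a symbol and were in neither list, the 5 with the highest values were TNPO3 (0.87), RFC4 (0.84), a subunit of the clamp loader of DNA polymerases, NUF2 (0.83), a kinetochore protein, ANAPC1 (0.82), a subunit of the anaphase-promoting complex, and ANP32E (0.82). E2F2 reached 0.88 and WDHD1 0.87 on the list of licensing and firing genes. The median over all 22069 genes was -0.22. The points of a set share their arrays and their normalization, so these r describe the groups and were not tested.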

How the data were processed

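RNA of hTERT-RPE1 and U2OS cells was measured on 40 Affymetrix Human WT 1.1 arrays. The authors deposited log2 values after RMA, 1 per Ensembl gene of a custom probe annotation, for 22069 genes, and the version and genome build of that annotation are not given in the sources used here. Groups came from the sample labels, which give no batch or scan date. Arrays of days 1 and 2 (24) and of day 3 (16) were fitted apart with limma 3.58.1 in R 4.3.3 (lmFit and eBayes, a mean for each of 8 groups, 16 and 8 residual degrees of freedom), and p-values were adjusted by the Benjamini-Hochberg method over all 22069 genes, with 0.05 as the threshold. A fold is the antilog of a log2 difference. The fit was tested on simulated data with a planted log2 change of 1 in 200 genes. It recovered 196 of them for hTERT-RPE1 day 2 and 187 for U2OS day 3 CASP8AP2, with 6 and 10 false calls. Changes as small as those of the licensing genes after siRNA were not simulated. The number of arrays limits the precision. Symbols were paired with 1924 of the genes from screening tables of the study, and came from Ensembl identifiers for the licensing genes. This number is what was paired here and not the extent of the screen. All 10 licensing genes were named in every comparison, and the members and gene lists were chosen with earlier results of these data known. Deviations of same-numbered replicates from their group means correlated with r from -0.102 to 0.0579 over 12 pairs on days 1 and 2 and from -0.0748 to 0.205 over 6 pairs of groups on day 3. Not every pair was over 0.1, so the numbers were not taken to pair the samples and the fit had no replicate block. Alternatives were the compared arrays alone, centring on the median, cyclic loess scaling, a filter on mean log2 under 5, a trended and robust variance, a replicate block, all 40 arrays in 1 fit and each array left out. Promoter windows were searched in Python 3.11.15.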

Additional observations from a re-analysis of the deposited data

Results flagged for a closer look

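The effect of CASP8AP2 siRNA on MCM4 on day 2 differed between the cell lines by -0.30 ± 0.08 (U2OS minus hTERT-RPE1 cells, log2 difference ± SE, limma, adjusted p = 0.0191), with the CASP8AP2 arrays below all control arrays in both lines. That day U2OS cells kept 30.1% of the CASP8AP2 signal, against 59.1% for hTERT-RPE1. The part of this unequal depletion in the MCM4 difference was not tested. The effect of NPAT siRNA on CDC6 on day 3 differed between the lines by -0.55 ± 0.12 (limma, adjusted p = 0.0320). The estimates had opposite signs, 0.37 in hTERT-RPE1 cells and -0.18 in U2OS cells, but the value in U2OS cells was not called. With only the compared arrays fitted, the line difference did not pass (adjusted p = 0.0554). In U2OS cells the effect of CASP8AP2 siRNA was more negative on day 2 than on day 1 for MCM2 (-0.43 ± 0.11, adjusted p = 0.0198), MCM4 (-0.41 ± 0.08, 0.00247), MCM5 (-0.49 ± 0.11, 0.00689) and MCM6 (-0.44 ± 0.09, 0.00293). Remaining CASP8AP2 signal was 40.6% on day 1 and 30.1% on day 2 in these cells, and its part in the difference was not tested. The same genes rose from day 1 to day 2 in U2OS control cells, and this rise enters the difference. It was 0.31 for MCM2, 0.20 for MCM4, 0.30 for MCM5 and 0.38 for MCM6. With the replicate block, MCM2 (limma, adjusted p = 0.0763) and MCM5 (0.0525) did not pass. Groups of 2 or 3 arrays were too small for a test of single outlying arrays.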

How the results depend on the processing

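The 28 comparisons share arrays, and the share of all genes called in them lay between 0.652% and 50.8%. It was highest between the lines under control siRNA (43.8% to 50.8%), where 5, 7 and 6 of the 10 genes were called on days 1, 2 and 3. Of 280 values (10 genes in 28 comparisons), 53 were called, and none of them changed sign under any alternative. They were still called in 304 of 344 refits under another setting and in 241 of 316 with an array left out. Counts of called genes that moved by over 1.5 times follow.

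With only the compared arrays fitted, counts went to 0 in hTERT-RPE1 cells for CASP8AP2 on day 2 (from 2), NPAT (from 1) and HINFP (from 2), for the line differences of CASP8AP2 on day 2 and of NPAT (from 1 each), for hTERT-RPE1 control cells between days (from 3), for HINFP against NPAT in hTERT-RPE1 cells (from 2) and for CASP8AP2 and HINFP against NPAT in U2OS cells (from 1 each), and to 1 for CASP8AP2 and HINFP siRNA in U2OS cells on day 3 (from 2 each). Cyclic loess scaling gave 1 for CASP8AP2 in hTERT-RPE1 cells on day 2, for CASP8AP2 and HINFP siRNA in U2OS cells on day 3 (from 2 each) and for CASP8AP2 against HINFP in hTERT-RPE1 cells (from 0), and 3 for HINFP against NPAT in U2OS cells. Centring on the median gave 1 for HINFP siRNA in hTERT-RPE1 cells, 8 for the lines under control siRNA on day 1 (from 5) and 3 for U2OS control cells between days (from 6).

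The filter on low values and the trended variance both gave 4 for HINFP siRNA in hTERT-RPE1 cells, 2 for the line difference of CASP8AP2 on day 2, 1 for CASP8AP2 against HINFP in hTERT-RPE1 cells, 2 for CASP8AP2 against NPAT and 3 for HINFP against NPAT in U2OS cells. For HINFP against NPAT in hTERT-RPE1 cells they gave 7 and 6, and the trended variance gave 1 for the line difference of CASP8AP2 on day 3 (from 0). With all 40 arrays in 1 fit, counts for CASP8AP2 in hTERT-RPE1 cells were 1 on day 2 and 1 on day 3, and they were 3 for NPAT and 5 for HINFP siRNA in hTERT-RPE1 cells, 4 for HINFP siRNA in U2OS cells, 2 for the line difference of CASP8AP2 on day 3, 2, 2 and 9 for CASP8AP2 against NPAT, CASP8AP2 against HINFP and HINFP against NPAT in hTERT-RPE1 cells, and 2 and 4 for CASP8AP2 and HINFP against NPAT in U2OS cells. The cause of these changes was not tested, except that fewer arrays give fewer degrees of freedom.

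With the replicate block, which rests on a number that the samples only share, counts were 0 for CASP8AP2 in hTERT-RPE1 cells on day 2, 0 for the line difference on day 2 and 2 (from 4) for the day difference in U2OS cells. The block kept 21 of 26 calls where it could be fitted, and it could not be fitted for comparisons of control cells between lines or days.

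With 1 array left out, counts ranged over 0 to 2 for CASP8AP2 in hTERT-RPE1 cells on each of days 2 and 3, 6 to 8 and 1 to 2 for it in U2OS cells on days 2 and 3, 0 to 0 for NPAT and 0 to 3 for HINFP siRNA in hTERT-RPE1 cells, 0 to 1 for HINFP siRNA in U2OS cells, 0 to 1 for the line differences of CASP8AP2 on day 2 and of HINFP, 0 to 0 for that of NPAT, 3 to 5 for the day difference in U2OS cells, 6 to 7 and 3 to 8 for the lines on days 2 and 3, 1 to 3 and 3 to 5 for control cells of hTERT-RPE1 and U2OS between days, 0 to 2 for HINFP against NPAT in hTERT-RPE1 cells, and 0 to 1 and 0 to 0 for CASP8AP2 and HINFP against NPAT in U2OS cells. A group left with 1 array was assumed to vary like the others. Among uncalled values, MCM4 between the lines on day 2 (-0.023) ranged from -0.057 to 0.027 and MCM10 for CASP8AP2 in hTERT-RPE1 cells on day 3 (-0.17) from -0.44 to 0.091 with 1 array left out.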
